A study of Mus musculus with 60 samples.

Results

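The clustered protocadherins are the adhesion proteins encoded by the alpha, beta and gamma gene clusters of mouse chromosome 18. Their rows were taken from the gene count table by symbol (Pcdha, Pcdhb or Pcdhg followed by the isoform name) and kept where the mean over all samples reached 0.5 counts-per-million (CPM). Of 35976 rows, 58 carried such a symbol and 54 were kept: 11 of 14 alpha, 21 of 22 beta and 22 of 22 gamma isoforms. The choice used no difference between groups. In RefSeq's annotation of GRCm38.p6, the alpha cluster runs from position 36930285 to 37188897 of chromosome 18, the beta cluster from 37264998 to 37521419 and the gamma cluster from 37661775 to 37841873.

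Clustered protocadherins are members of the cadherin superfamily that bind identical molecules on the opposing membrane. Each isoform has its own variable exon with its own promoter. Alpha and gamma variable exons are spliced to constant exons that encode a shared cytoplasmic tail, whereas beta isoforms have no such tail. A neuron expresses a subset of the alternate isoforms, chosen through promoter methylation and through looping by CTCF and cohesin, and the combination lets its branches recognise and avoid one another. The C-type isoforms (Pcdhac1, Pcdhac2, Pcdhgc3, Pcdhgc4 and Pcdhgc5), which lie last in the alpha and gamma clusters, are regulated separately from the alternate isoforms.

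RNA was sequenced from the hippocampus of wild-type mice (WT) and of AppNL-G-F mice (NLGF), at 3, 8 and 24 weeks of age. NLGF is a knock-in line whose own App gene carries mutations of familial Alzheimer's disease and is driven by its own promoter, so that no transgene is present. Each genotype and week had 10 samples, 5 female and 5 male, which gave 6 sets of 10. The series calls them biological replicates without saying that each came from a separate animal, so the spread behind each p-value is that among the samples given and may partly be technical.

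Library totals ran from 17.8 to 35.2 M counts (M, mega), except in 7 of the 10 NLGF week 3 libraries, which held 54.0 to 73.4 M; no WT library was of this size, and these 7 are called the deep libraries. The sex label matched the counts of Xist, which female cells express, and of the Y-linked Ddx3y in 59 of 60 libraries. The exception was the library labelled NLGF week 3 male 2, with 248 CPM of Xist against at most 1.79 in the other male libraries, and 0 CPM of Ddx3y against 38.6 to 62.5. The library titled NLGF week 8 female 1 is listed with an age of 3 weeks in another label and was kept at week 8. App, the targeted gene, was measured in every set, with means of 1715, 1903 and 1741 CPM in WT and 1607, 1643 and 1622 CPM in NLGF at weeks 3, 8 and 24; a knock-in of point mutations does not remove the transcript, so this level does not check the genotype. Markers of dentate granule cells, CA field pyramidal cells, excitatory neurons and interneurons were all detected in every set.

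All 3 clusters were expressed in the hippocampus, and the gamma cluster held most of the counts. Over the 6 sets, gamma members made up 63.2% to 64.9% of the summed CPM of the 54 members, beta members 21.9% to 24.5% and alpha members 12.3% to 13.5%. Levels were compared between isoforms as CPM per kilobase of the exon bases that an isoform shares with no other isoform of its cluster (GENCODE vM21, mm10). On that scale the median was 1.83 in alpha, 1.72 in beta and 4.37 in gamma. Exon bases shared by 10 or more isoforms numbered 2860 in alpha, 0 in beta and 2119 in gamma. How reads in shared exons were counted is not given in the sources used here. Shares and levels compared between clusters depend on it.

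The C-type isoforms Pcdhgc5 and Pcdhgc3 stood far above the alternate ones, and Pcdhac2 above them by less. Pcdhgc5 had the highest level, 45.8 CPM per kilobase, and Pcdhgc3, known for promoting dendrite branching, had 38.0. Pcdhac2, known for the tiling of serotonergic axons, had 15.9, and the highest alternate isoform, Pcdhga11, had 11.1. The other 2 C-type isoforms were not of this order: Pcdhgc4, which supports the survival of interneurons, had 5.53 and Pcdhac1 2.01. The highest beta isoform, Pcdhb9, had 4.14.

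**Figure D1:**
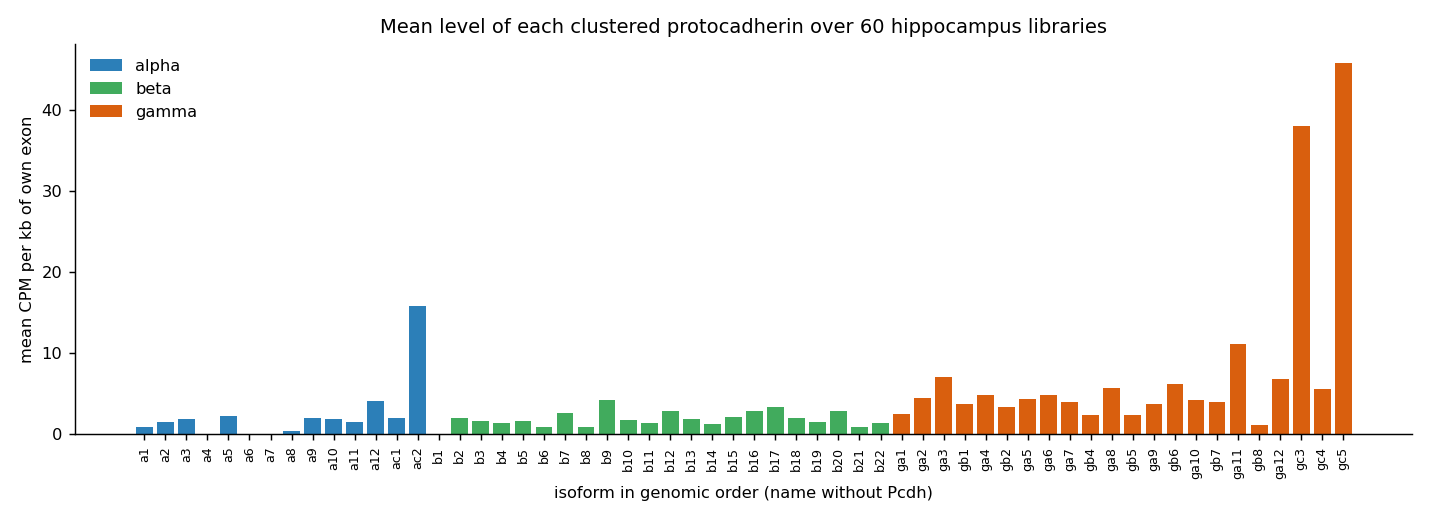
Mean level of each of the 58 rows over the 60 libraries, as CPM per kilobase of exon not shared with other isoforms of the cluster, in genomic order and coloured by cluster. Pcdhgc5 (45.8), Pcdhgc3 (38.0), Pcdhac2 (15.9) and Pcdhga11 (11.1) stand above the rest.

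The member nearest to the threshold was Pcdha8, at 1.07 CPM, followed by Pcdha1 at 2.19 and Pcdhgb8 at 2.81. On the other side lay Pcdhb1, at 0.152 CPM with 281 counts over 55 libraries, and Pcdha4, Pcdha6 and Pcdha7, each listed at 0 in all 60 libraries. RefSeq places the gene models Gm37013, Gm38666 and Gm38667 from the starts of Pcdha4, Pcdha6 and Pcdha7 to the end of the gamma cluster, and these rows held 17, 49 and 58 counts over all libraries. How the authors' counting treated reads that fall in both models was not given in the sources used here, so the zeros are no measure of these 3 isoforms. The gamma variable exons also lie within such models, and BC037039 overlaps Pcdhgc3, so part of their reads may have been left uncounted. All 54 members passed the filter on low counts in every comparison.

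The summed levels of the clusters overlapped between the weeks, while the make-up of the gamma sum differed. The gamma sum was 460 ± 38.4, 475 ± 39.4 and 458 ± 21.5 CPM in WT at weeks 3, 8 and 24 (mean ± SD, n = 10) and 475 ± 25.5, 460 ± 21.3 and 452 ± 19.3 CPM in NLGF. The alpha sum was 96.2 ± 6.68 CPM in WT at week 3 and 90.0 ± 6.52 at week 24, and in NLGF 94.0 ± 9.63 and 88.0 ± 5.02. The beta sum was 155 ± 12.7 CPM in WT at week 3 and 174 ± 7.92 at week 24, and in NLGF 163 ± 10.5 and 176 ± 8.87. Libraries of the 2 weeks overlapped in each of these sums. No test was made on sums over members.

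Within gamma, the C-type isoforms held a smaller share, and the A and B isoforms a larger one, at week 24 than at week 3. Pcdhgc3, Pcdhgc4 and Pcdhgc5 together made up 55.4% ± 2.32 of the gamma sum in WT at week 3, 51.9% ± 3.30 at week 8 and 47.6% ± 1.59 at week 24 (SD, n = 10). In NLGF the share was 53.2% ± 1.74, 49.2% ± 1.93 and 45.7% ± 1.27. The lowest week 3 library of WT (52.8%) lay above the highest of week 24 (49.4%), and so it was in NLGF (50.2% against 47.6%). In CPM, the summed C-type level went from 255 ± 27.2 to 218 ± 14.2 in WT while the summed A and B level went from 205 ± 16.6 to 240 ± 11.3; in NLGF the same sums went from 253 ± 20.5 to 206 ± 9.02 and from 222 ± 8.21 to 246 ± 13.4. In the 7 deep NLGF week 3 libraries the C-type share was 52.6%, and in the other 3 it was 54.6%, both above the highest NLGF week 24 library. A share within a library does not depend on how libraries are scaled.

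**Figure D2:**
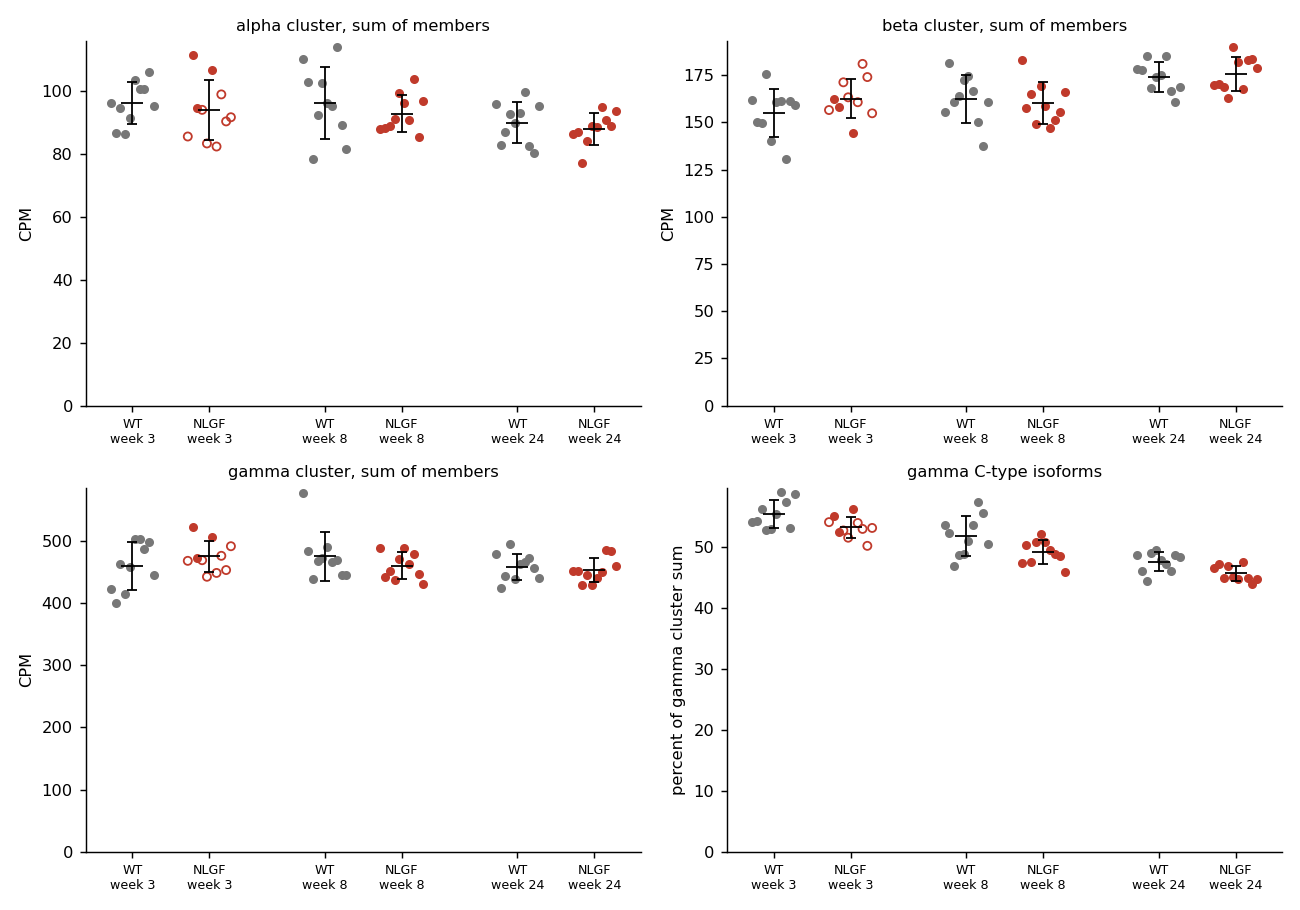
Summed CPM of the alpha, beta and gamma members and the percent of the gamma sum held by Pcdhgc3, Pcdhgc4 and Pcdhgc5, by genotype and week; points are libraries (open: the 7 deep libraries), bars mean and SD, n = 10. The sums overlap between weeks, whereas the C-type share of week 24 lies below that of week 3 in both genotypes.

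Between weeks 3 and 24, 17 of the 54 members changed in WT, 13 higher and 4 lower, and 17 in NLGF, 10 higher and 7 lower (edgeR quasi-likelihood test, Benjamini-Hochberg adjusted p under 0.05). This is 31.5% of the members in each genotype. Over all genes tested, 21.9% were called in WT (10.6% higher, 11.3% lower) and 25.7% in NLGF (12.3% higher, 13.3% lower). In bulk tissue, a change in RNA per cell and a change in the number of cells of a type cannot be told apart. The median log2 fold change of the members was 0.13 in WT and 0.06 in NLGF, against 0.01 and 0.01 over all genes tested. In the same comparison 11 members were called in both genotypes, all in the same direction, which is 64.7% of each list of 17. Over all genes called and tested in both fits, 2004 were shared, 54.3% of the WT list and 45.7% of the NLGF list. Of these 2004, 1987 had the same direction. Over the steps from week 3 to 8 and from week 8 to 24, no member was called in both genotypes. In WT and NLGF, 3 and 4 members were called over the first step and 1 and 3 over the second. Of all genes tested in both fits, 601 were shared over the first step, 50% of the WT and 33.6% of the NLGF calls. Over the second step 23 were shared, 48.9% of the WT and 7.3% of the NLGF calls.

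Markers of other cell types moved with age too. In WT, the oligodendrocyte markers Mbp, Mog and Mag fell between weeks 3 and 24, from means of 4084, 125 and 475 CPM to 1834, 39.3 and 138 CPM, and for none of the 3 did the libraries of these weeks overlap. All 3 markers of immature neurons (Dcx, Sox11, Igfbpl1) fell, from a summed mean of 103 to 52.0 CPM, as did 2 of 3 markers of oligodendrocyte precursors, from 160 to 118 CPM. Of the astrocyte markers 2 of 4 fell in each genotype, of the endothelium markers 2 of 3 and of the meningeal fibroblast markers 1 of 3. Other markers rose: 2 of 4 of microglia in WT and 3 in NLGF, and 1 of 4 of interneurons in each. In WT 1 of 5 thalamus and cortex markers rose, and in NLGF 1 of 3 CA field pyramidal cell markers. Summed choroid plexus markers ran from 29.9 to 10494 CPM between libraries. None of the 3 excitatory neuron markers was called in WT, with sums of 7265 and 6777 CPM, and in NLGF 2 of 3 fell. The part of these shifts in the protocadherin changes was not tested.

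**Figure D3:**
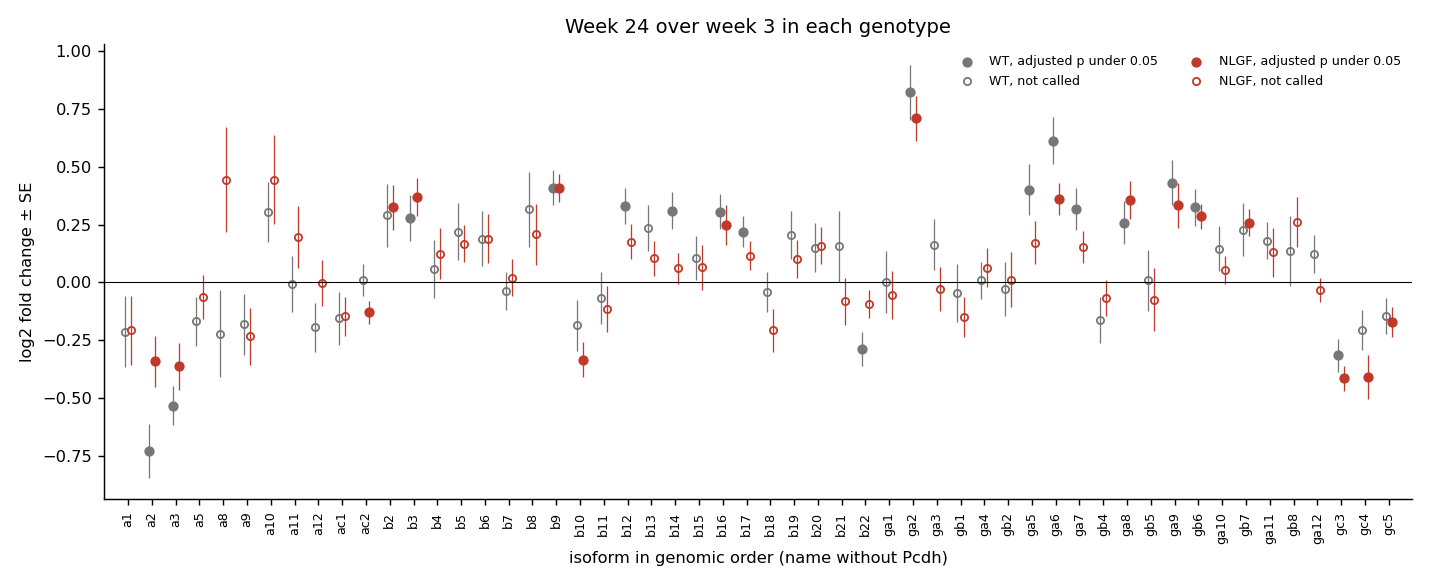
Log2 fold change of week 24 over week 3 for each of the 54 members in genomic order, with its standard error, in WT (grey) and NLGF (red); filled points have an adjusted p under 0.05. Most gamma A and beta isoforms lie above 0, whereas Pcdha2, Pcdha3 and the gamma C-type isoforms lie below.

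The C-type isoforms carried most of the decrease in gamma. Pcdhgc3 ranged from 96.2 to 130 CPM (median 109) in WT at week 3, from 77.8 to 136 (92.7) at week 8 and from 76.7 to 102 (87.9) at week 24. In NLGF it ranged from 98.6 to 137 CPM (median 111), from 74.7 to 102 (91.9) and from 79.9 to 94.0 (84.8). Every NLGF library of week 24 lay below every one of week 3, while the WT libraries overlapped.

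Pcdhgc3 fell by 0.32 ± 0.0730 on the log2 scale in WT (SE; edgeR adjusted p = 0.00192) and by 0.42 ± 0.0538 in NLGF (adjusted p = 8.07e-07). Pcdhgc4 fell by 0.41 ± 0.0936 in NLGF (edgeR adjusted p = 0.00139), and its log2 difference in WT was -0.21 ± 0.0881 (adjusted p = 0.0923). The most abundant member, Pcdhgc5, fell by 0.17 ± 0.0655 in NLGF (edgeR adjusted p = 0.0496), next to -0.15 ± 0.0782 in WT (adjusted p = 0.185). Pcdhac2 fell by 0.13 ± 0.0488 in NLGF (edgeR adjusted p = 0.0472) and stood at 0.01 ± 0.0696 in WT (adjusted p = 0.946). Pcdhac1 was not called in either genotype. The calls on Pcdhgc5 and Pcdhac2 in NLGF lie just past the threshold: that on Pcdhgc5 was lost in 17 of the 30 fits that each left out 1 library, and that on Pcdhac2 in 15 of 30. The C-type isoforms were all below 0 in NLGF, with a median log2 difference of -0.17 over the 5, and 4 of 5 in WT, with a median of -0.16.

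The gamma A and beta isoforms held most of the increases. In WT, 6 of the 12 rose and all 12 log2 differences were positive (median 0.22), and in NLGF 4 rose and 9 were positive (median 0.14). Pcdhga2 ranged from 5.78 to 12.2 CPM (median 7.85) in WT at week 3, from 7.08 to 13.3 (10.6) at week 8 and from 11.5 to 17.1 (14.7) at week 24. In NLGF the ranges were 7.20 to 12.9 CPM (median 8.34), 8.48 to 14.8 (9.92) and 13.0 to 17.1 (14.4). All 10 NLGF libraries of week 24 lay above all 10 of week 3, while 1 or more WT libraries overlapped.

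Pcdhga2 rose by 0.82 ± 0.119 on the log2 scale in WT (edgeR adjusted p = 4.82e-06) and by 0.71 ± 0.0963 in NLGF (adjusted p = 1.77e-06), the largest change of any member in each genotype. Pcdhga6 had a median of 9.78 CPM in WT at week 3 (8.37 to 13.5), 11.2 at week 8 (9.09 to 15.4) and 14.8 at week 24 (12.9 to 21.7), so that only the edges of the outer weeks overlapped. It rose by 0.61 ± 0.103 in WT (edgeR adjusted p = 4.85e-05) and by 0.36 ± 0.0708 in NLGF (adjusted p = 0.000288), where its median went from 11.7 to 14.1 CPM. Pcdhga9 rose in both genotypes too, by 0.43 in WT and 0.33 in NLGF, and so did Pcdhga8, by 0.26 and 0.36. Pcdhga5 (0.40) and Pcdhga7 (0.32) were called in WT.

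Of the 7 gamma B isoforms, 1 rose in WT and 2 in NLGF, and the median log2 difference over the 7 was 0.01 in each genotype. Pcdhgb6 rose by 0.32 ± 0.0789 in WT (edgeR adjusted p = 0.00319) and by 0.28 ± 0.0556 in NLGF (adjusted p = 0.000264). Pcdhgb7 was called in NLGF, where it rose by 0.26.

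In the beta cluster, whose proteins lack the shared cytoplasmic tail, 6 of 21 rose and 1 fell in WT, and 4 rose and 1 fell in NLGF; 16 of 21 log2 differences were positive in each genotype, with medians of 0.21 and 0.12. Pcdhb9, the beta isoform with the highest level per kilobase, ranged from 9.62 to 12.6 CPM (median 10.8) in WT at week 3, from 11.3 to 16.4 (12.4) at week 8 and from 12.4 to 16.3 (14.5) at week 24. In NLGF it went from 9.77 to 12.1 CPM (median 11.5), over 9.35 to 13.8 (11.5), to 12.7 to 16.5 (15.0). The NLGF libraries of weeks 3 and 24 did not overlap.

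Pcdhb9 rose by 0.41 ± 0.0749 in WT (edgeR adjusted p = 0.000146) and by 0.41 ± 0.0606 in NLGF (adjusted p = 6.86e-06). Pcdhb16 and Pcdhb3 were the other beta isoforms called in both, at 0.31 and 0.28 in WT and 0.25 and 0.37 in NLGF. Pcdhb12 (0.33), Pcdhb14 (0.31) and Pcdhb17 (0.22) were called in WT and Pcdhb2 (0.33) in NLGF.

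A different beta isoform was called lower in each genotype, and for neither was the difference between the genotypes called. Pcdhb22, the last of the cluster, ranged from 8.86 to 11.5 CPM (median 9.57) in WT at week 3 and from 6.99 to 8.71 (8.02) at week 24. Among the members it was the single one whose WT libraries of these weeks did not overlap. Overlap was not counted over all genes, and Mbp, Mog, Mag and Dnmt3a did not overlap in WT either. Pcdhb22 fell by 0.29 ± 0.0733 in WT (edgeR adjusted p = 0.00454). Pcdhb10 fell by 0.33 ± 0.0776 in NLGF (edgeR adjusted p = 0.00165); without the 7 deep libraries its log2 difference was -0.15 (adjusted p = 0.362).

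Among the 9 alternate alpha isoforms none rose and the same 2, Pcdha2 and Pcdha3, fell in both genotypes. Pcdha2 ranged from 3.52 to 6.26 CPM (median 4.74) in WT at week 3, from 2.12 to 4.49 (3.60) at week 8 and from 2.30 to 3.53 (2.78) at week 24. In NLGF it started lower, at 3.03 to 4.53 CPM (median 3.97), and ended at 2.21 to 3.65 (3.03). Libraries of the first and last week overlapped in both genotypes, in WT only at the edge.

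Pcdha2 fell by 0.73 ± 0.119 in WT (edgeR adjusted p = 3.03e-05), the largest decrease of any member there, and by 0.34 ± 0.110 in NLGF (adjusted p = 0.0200). Pcdha3 went from a median of 5.58 CPM to 3.84 in WT and from 4.72 to 4.06 in NLGF. It fell by 0.53 ± 0.0847 in WT (edgeR adjusted p = 2.12e-05) and by 0.36 ± 0.102 in NLGF (adjusted p = 0.00814). The other 7 alternate alpha isoforms tested were not called, and over the 9 the median log2 difference was -0.19 in WT and -0.06 in NLGF. The share of the alpha sum held by Pcdhac2 went from 48.6% ± 3.07 to 52.3% ± 1.26 in WT and from 53.0% ± 2.76 to 51.6% ± 1.53 in NLGF.

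Without the 7 deep libraries, which leaves 3 NLGF libraries at week 3, 15 members were called in NLGF between weeks 3 and 24, 7 higher and 8 lower, of which 11 were among the 17. Of the 6 calls lost, 5 had log2 differences near those with all libraries: -0.32 in Pcdha2, 0.33 in Pcdhb2, 0.32 in Pcdhga8, 0.39 in Pcdhga9 and 0.23 in Pcdhgb7, with edgeR adjusted p values from 0.0671 to 0.153. The other was Pcdhb10, whose difference moved from -0.33 to -0.15. In WT, 15 of the 17 calls were kept in every fit that left out 1 library, and in NLGF 14 of 17. The WT calls on Pcdhb3 and Pcdhga8 were lost in 21 and 25 of 30 such fits.

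Steps between neighbouring weeks gave few calls. In WT, 3 members changed from week 3 to week 8 (5.56%, against 7.14% of all genes tested): Pcdha2 fell by 0.42 ± 0.118 (edgeR adjusted p = 0.0219), Pcdha3 fell by 0.38 ± 0.0848 (adjusted p = 0.00332) and Pcdhb9 rose by 0.27 ± 0.0752 (adjusted p = 0.0214). The call on Pcdha2 was lost without WT week 3 male 1, and that on Pcdhb9 without WT week 8 male 2 or male 3. In NLGF, 4 members changed over the same step (7.41%, against 10.4%): Pcdhgc3 fell by 0.31, Pcdhgc4 by 0.37 and Pcdhb10 by 0.33, and Pcdhgb7 rose by 0.21. Without the 7 deep libraries the log2 difference of Pcdhb10 was -0.15 (edgeR adjusted p = 0.446) and that of Pcdhgb7 0.19 (adjusted p = 0.189).

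From week 8 to week 24, 1 member was called in WT (1.85%, against 0.279% of all genes), Pcdhb14, which rose by 0.38 ± 0.0811 (edgeR adjusted p = 0.0272). That call was lost without WT week 24 female 1, female 3, male 1 or male 2, or without WT week 8 female 2, with adjusted p values of up to 0.0651. In NLGF 3 members rose (5.56%, against 1.9%): Pcdhga2 by 0.46 ± 0.0965, Pcdhb9 by 0.39 ± 0.0611 and Pcdhga6 by 0.32 ± 0.0713 (edgeR adjusted p = 0.00442, 0.000103 and 0.00934). In WT the same 3 had medians at week 8 between those of weeks 3 and 24. The 3 NLGF calls were kept in every fit that left out 1 library. Without NLGF week 8 female 1, the library listed with another age in 1 label, 6 members were called over this step in NLGF.

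No member was called between NLGF and WT at week 3, 8 or 24. Over all genes tested, 3.78%, 0% and 0.878% were called at these weeks. Without adjustment, 7, 8 and 2 members had a p under 0.05 of 54, against 22%, 7.83% and 8.99% of all genes. With DESeq2, 2 members were called at week 3 (Pcdhga1 and Pcdhga3) and 0 at weeks 8 and 24. The libraries of the genotypes overlapped for all 54 members at each week. Overlap was counted over the members and otherwise looked at only in single named genes, so no share over all genes stands beside it.

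**Figure D4:**
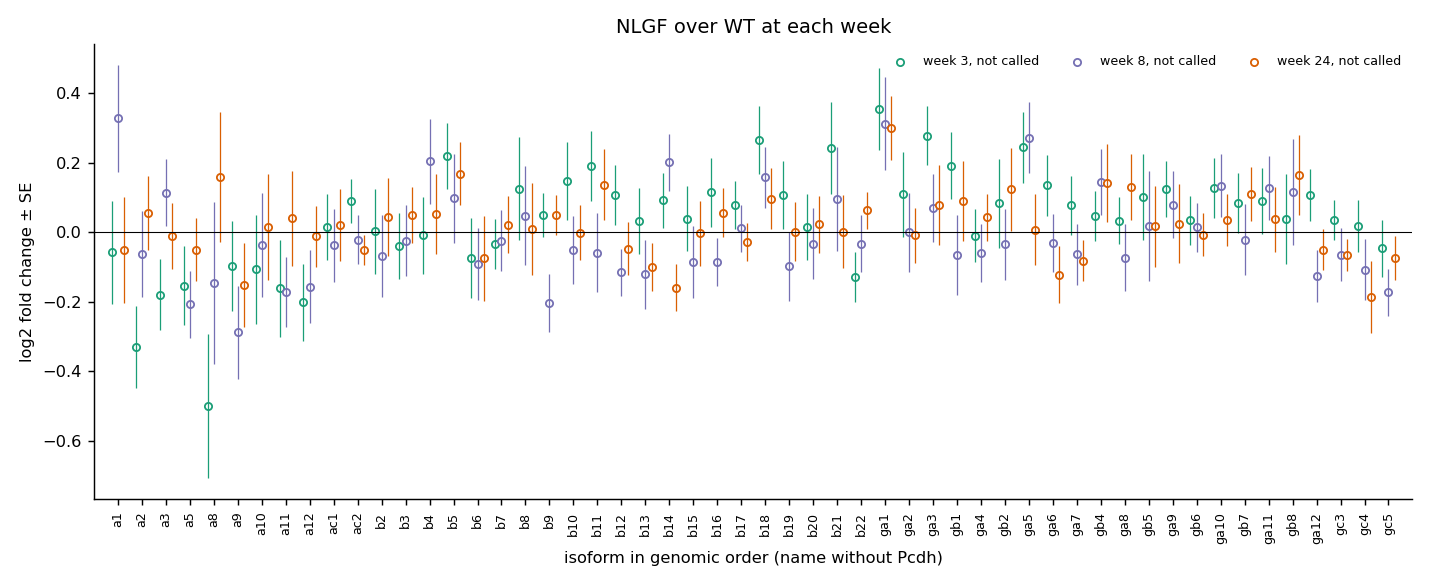
Log2 fold change of NLGF over WT at weeks 3, 8 and 24 for each of the 54 members in genomic order, with its standard error. No member has an adjusted p under 0.05 at any week, and Pcdhga1 lies above 0 at all 3.

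The precision bounds the size of difference between these sets, member by member and without adjustment over the 54. At week 3 such a difference holds depth as well as genotype. The 95% confidence interval of the fold change lay within 1.5-fold in either direction for 52 of 54 members at week 3, 51 at week 8 and 54 at week 24, and within 1.25-fold for 32, 34 and 39. The widest was that of Pcdha8, the member with the fewest counts, from -0.93 to -0.07 on the log2 scale at week 3.

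At week 3 the signs differed by subtype. All 9 alternate alpha isoforms were below 0 (median log2 difference -0.16), while 11 of 12 gamma A, 7 of 7 gamma B and 16 of 21 beta isoforms were above 0. None of these passed the test. The alpha sum had a mean of 89.5 CPM in the 7 deep NLGF libraries, 104 CPM in the other 3 and 96.2 CPM in WT. Depth and genotype cannot be told apart at week 3: without the 7 deep libraries, which leaves 3 of NLGF, and with a term for them, 0 genes of the whole table were called there.

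Pcdhga1, the first isoform of the gamma cluster, had the smallest p of the members between the genotypes at week 24. In WT it ranged from 4.30 to 8.85 CPM (median 7.26) at week 3, from 4.65 to 10.2 (6.84) at week 8 and from 5.64 to 9.16 (6.76) at week 24. In NLGF it ranged from 6.98 to 10.6 CPM (median 9.05), from 6.57 to 11.9 (8.82) and from 5.98 to 10.4 (8.49). The NLGF median was the higher at every week, with overlapping libraries.

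The log2 difference of Pcdhga1 was 0.35 ± 0.118 at week 3 (edgeR adjusted p = 0.0831), 0.31 ± 0.133 at week 8 (adjusted p = 0.633) and 0.30 ± 0.0926 at week 24 (adjusted p = 0.209). The first passed the threshold without NLGF week 3 male 1 (adjusted p = 0.0367) and the last without NLGF week 24 male 2 (adjusted p = 0.0147). Pcdhga3, with 12.5 to 21.8 CPM (median 15.8) in WT and 16.8 to 20.4 (19.7) in NLGF at week 3, differed by 0.28 ± 0.0850 (edgeR adjusted p = 0.0630), and passed without WT week 3 female 5 (adjusted p = 0.0261).

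A single genotype effect over the 60 libraries, fitted after the weekly results had been seen, called 2 members (3.7%, against 11% of all genes). Pcdhga1 was higher in NLGF by 0.32 ± 0.0672 (edgeR adjusted p = 0.00309) and Pcdhb18 by 0.17 ± 0.0524 (adjusted p = 0.0258). Without the deep libraries Pcdhga1 stood at 0.32 (edgeR adjusted p = 0.0451) and Pcdhb18 at 0.10 (adjusted p = 0.389). Over weeks 8 and 24 alone neither passed, with 0.31 (adjusted p = 0.113) and 0.13 (adjusted p = 0.326). Since these members were picked out by the weekly values, the pooled p-values add no independent evidence.

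The authors' deposited table of differences between the genotypes lists 4 of the 54 members at week 3. It holds 2628 rows of that week in all, next to 35976 rows of the count table. It gives Pcdhga1 a log2 fold change of 0.21 (adjusted p = 0.0208), Pcdhb18 0.18 (0.0339), Pcdhga3 0.17 (0.0509) and Pcdha2 -0.20 (0.0288). In the authors' deposited table the signs match those fitted here. In the fit made here the same 4 had the smallest p-values of the members at week 3, and none passed the threshold. Both rest on the same samples, so the match is no independent evidence. Here 628 of 16605 genes tested were called at that week. How the deposited fold changes were computed is not given in the sources used here, so their sizes were not compared.

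**Figure D5:**
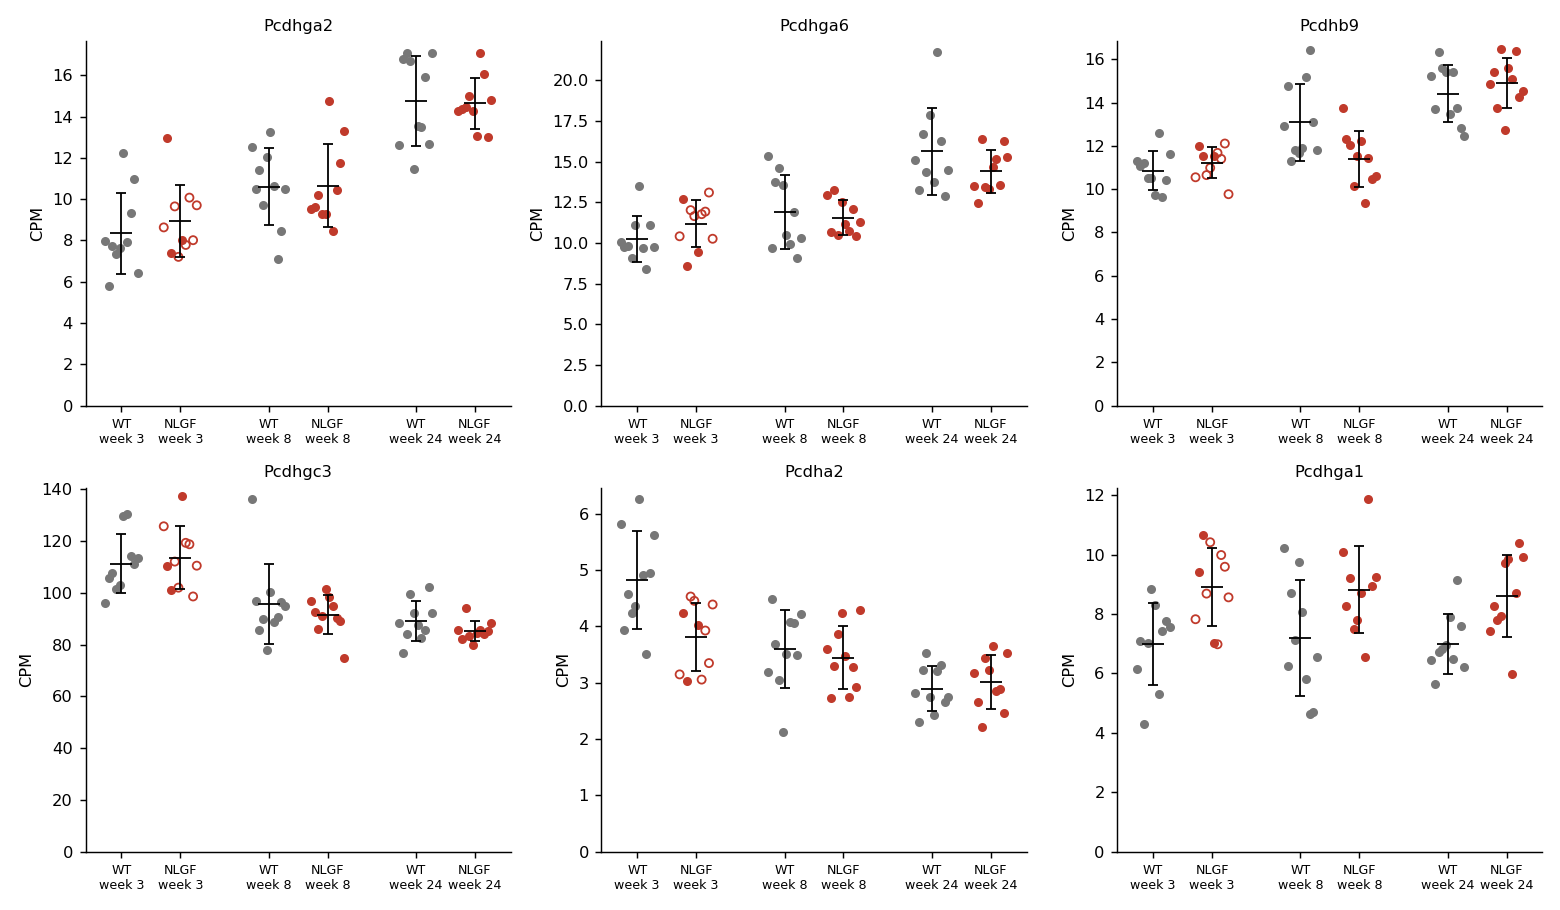
CPM of single members by genotype and week; points are libraries (open: deep libraries), bars mean and SD, n = 10. Pcdhga2 and Pcdhb9 are highest at week 24 and Pcdha2 and Pcdhgc3 lowest, whereas Pcdhga1 has its higher medians in NLGF, with overlapping libraries.

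The change with age was not shown to differ between the genotypes for any member. The test of the difference called 0 of 54 between weeks 3 and 8, 0 between weeks 8 and 24 and 0 between weeks 3 and 24, against 0.18%, 0.31% and 1.15% of all genes tested (edgeR); DESeq2 also called 0 in each. At an unadjusted p under 0.05 there were 4, 2 and 5 members, against 7.26%, 3.85% and 13.5% of all genes. Pcdha2 had the smallest p between weeks 3 and 24, with a difference of 0.39 ± 0.161 between its log2 changes (edgeR adjusted p = 0.257; 95% interval 0.07 to 0.71). Pcdhb14 had the smallest between weeks 8 and 24, at -0.36 ± 0.104 (edgeR adjusted p = 0.181).

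Of 19 genes for the choice and silencing of protocadherin promoters, 2 rose and 4 fell from week 3 to week 24 in each genotype, next to 21.9% of all genes called in WT and 25.7% in NLGF. Dnmt3a, a DNA methyltransferase that acts on unmethylated sites, ranged from 173 to 240 CPM (median 202) in WT at week 3 and from 79.4 to 117 (88.7) at week 24, with no overlap. It fell by 1.15 ± 0.0760 in WT (edgeR adjusted p = 1.16e-12) and by 0.96 ± 0.0992 in NLGF (adjusted p = 1.88e-08). Mau2, which helps to load cohesin, fell by 0.33 in each, and the histone methyltransferase gene Setdb1 by 0.26 and 0.22. Stag1, a cohesin subunit, rose by 0.21 and 0.32. Ctcf, whose protein anchors the promoter loops, stood at 0.04 in WT and 0.01 in NLGF (edgeR adjusted p = 0.711 and 0.794).

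Of 19 binding and signalling partners, 3 rose and 4 fell in WT between weeks 3 and 24, and 1 rose and 6 fell in NLGF. Over all genes tested, 21.9% were called in WT and 25.7% in NLGF. Fyn, a kinase of the Src family, fell by 0.60 ± 0.0660 in WT (edgeR adjusted p = 4.28e-08) and by 0.51 ± 0.0629 in NLGF (adjusted p = 3.29e-07). Ctnnb1, which encodes beta-catenin, fell by 0.28 and 0.20. Rac1, a small GTPase of the actin cytoskeleton, rose by 0.24 in WT.

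At the single weeks, Rac1 was the 1 partner called between the genotypes, higher by 0.28 ± 0.0771 in NLGF at week 3 (edgeR adjusted p = 0.0440). Its mean was 265 CPM in the 7 deep NLGF libraries, 204 CPM in the other 3 and 204 CPM in WT. No gene of the promoter list was called between the genotypes at a single week, and no partner at weeks 8 and 24. Over all genes tested, 3.78%, 0% and 0.878% were called at weeks 3, 8 and 24. The pooled genotype effect called 3 partners higher in NLGF, Nckap1 (0.19), Rac1 (0.14) and Wasf1 (0.13), and of the promoter list Pds5b higher (0.13) and Dnmt1 lower (-0.12), against 11% of all genes.

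Of the 12 protocadherins outside the clusters, 0 rose and 3 fell in WT, and 0 rose and 6 fell in NLGF, next to 21.9% and 25.7% of all genes called. Pcdh12, known from endothelium, fell by 1.44 in each genotype, from means of 1.54 and 1.84 CPM to 0.547 and 0.672, and Pcdh18 by 0.54 and 0.58. The endothelium markers, of which 2 of 3 fell in each genotype, moved with it, and their part in it was not tested. Between the genotypes Pcdh20 was called, higher in NLGF by 0.31 at week 3 and by 0.25 in the pooled effect. Of the 14 tested genes beside the clusters on chromosome 18, 0 rose and 2 fell in WT (Tmco6 and Arap3), and 2 rose and 0 fell in NLGF (Ik and Ndufa2), against the same shares of all genes. Between the genotypes, 2 were lower in NLGF at week 3 (Ndufa2 and Hars) and 3 in the pooled effect (Hars, Fchsd1 and Zmat2). Over all genes tested, 3.78% were called at week 3 and 11% in the pooled effect. Depth and genotype cannot be told apart at week 3, for Pcdh20 as for these genes.

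The median correlation between isoforms from library to library was low, while single pairs ran from -0.57 to 0.71. After the mean of its genotype, week and sex was taken from each value, the median Pearson correlation between isoforms over the 60 libraries was 0.19 within alpha, 0.22 within beta and 0.12 within gamma, and 0.05 to 0.07 between clusters. These are descriptions, since all isoforms share the same libraries, depth and dissection. The part of counting noise in the low values was not tested. The strongest pair was Pcdhac2 with Pcdhgc5 at 0.71, both C-type isoforms, followed by Pcdhb19 with Pcdhb4 at 0.65. The coefficient of variation within a set, as the median over sets, was 14.3% for the median member and ran from 8.18% to 34.3%, lowest in Pcdhac2 and highest in Pcdha8.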

How the data were processed

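Hippocampal RNA of 60 samples was measured by RNA sequencing after removal of ribosomal RNA. Raw gene counts were deposited by the authors as 1 table. The submitters' processing notes name FastQC, STAR, edgeR, DESeq2 and mm10, with no role or version. Which counter, annotation and strand setting were used is not given in the sources used here, so that overlapping genes cannot be told apart. The authors also deposited a table of genes called between the genotypes, with mean normalised signal, log2 fold changes and p-values per the file headers.

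Counts were fitted with edgeR 4.0.16 (R 4.3.3, limma 3.58.1; filterByExpr with a minimum count of 10, TMM scaling, robust quasi-likelihood test, sex as a covariate), and p-values were adjusted by Benjamini-Hochberg over all genes tested, with a threshold of 0.05. Genotypes were compared within a week, weeks within a genotype, and the difference of genotype effects between weeks over all 60 samples. CPM used TMM-scaled totals. The scripts were tested on simulated data. Between 17.8 M and 73.4 M counts per library limited the precision most for the members of few counts.

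Alternatives were DESeq2 1.42.0, RLE scaling, no filter, a filter of 1 CPM in 10 samples, no sex term, a replicate block, all samples in 1 fit, each library left out, and the deep NLGF week 3 libraries (over 50 M counts), or the one whose sex label conflicts, left out or modelled. Replicate numbers recur in the labels. Same-numbered libraries deviated together (correlation over 0.1) in 3, 3 and 7 of 10 pairs of the genotypes at weeks 3, 8 and 24, and correlated best with their own number in 1, 3 and 6. Since not every pair did so and no label ties them, the numbers were not taken as pairs. The rule named the C-type isoforms, the 3 most abundant members of each cluster, the members next to the threshold on level, and the called members of each cluster, or the 3 of smallest p where over 5 were called; the other called members and those compared by their overlap were named after their values were seen. Members and lists were chosen with earlier results of these data known. No sequences are shown. Of the gene lists, 1 partner and 1 cell type marker are not reported here.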

Additional observations from a re-analysis of the deposited data

Results flagged for a closer look

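In 9 of 162 sets of 10 libraries examined (24 named members and the 3 cluster sums, in each genotype and week), 1 library stood farther from its nearest neighbour than Dixon's 95% limit allows; chance flags about 1 in 20 sets. Of these, 3 were in WT week 8 female 1. Its gamma sum was 577 CPM against 438 to 490 in the other 9 libraries. Its Pcdhgc3 was 136 CPM with the next at 100.2, and its Pcdhgb7 was 16.2 CPM with the next at 11.7. These 3 are not separate, since both members are part of the gamma sum. In the same library the summed markers of dentate granule cells stood at 559 CPM (119 to 342 in the others), those of CA field pyramidal cells at 565 (231 to 392) and of excitatory neurons at 10672 (5992 to 8165), while interneuron markers stood at 487 (561 to 794). Markers of microglia (231 CPM against 139 to 210), endothelium (132 against 90.6 to 121) and astrocytes (1048 against 827 to 1031) also lay above the others, and its TMM factor, 0.925, was the lowest of the 60. The part of this in its protocadherin levels was not tested.

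At week 3, NLGF female 2 had 158 CPM of Pcdhgc5 (next 130) and 12.9 CPM of Pcdhga2 (next 10.1), and NLGF male 1 had 6.96 CPM of Pcdha3 (next 5.48) and 6.81 CPM of Pcdhb14 (next 9.63). Pcdhb17 was 18.8 CPM in NLGF week 8 female 1 (next 16.2), the library listed with another age in 1 label. Pcdhac2 was 39.4 CPM in NLGF week 24 female 3 (next 44.5).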

How the results depend on the processing

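Of the alternatives for single members, other than leaving out 1 library, 401 kept the direction and the side of the threshold, 5 newly passed it and 30 no longer passed it. The counts of members called that moved by over 1.5 times did so as follows. With DESeq2 there were 2 instead of 0 for NLGF against WT at week 3, 6 instead of 3 for WT week 8 against week 3, 3 instead of 1 for WT week 24 against week 8, 6 instead of 3 for NLGF week 24 against week 8, and 4 instead of 2 for the pooled genotype effect. All 60 samples in 1 fit gave 2 for NLGF against WT at week 3. No filter gave 0 for WT week 24 against week 8. A term for the deep NLGF week 3 libraries gave 5 for NLGF week 24 against week 8. The pooled effect called 1 member without the deep libraries, 1 with a term for them and 0 over weeks 8 and 24 alone. The cause of these shifts was not tested.

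Replicate numbers were not taken as pairs, although at week 24 the pairing held in 7 of 10 same-numbered pairs of the genotypes (correlation over 0.1). With the replicate block, 16 members were called between weeks 3 and 24 in WT and 16 in NLGF, and 0 between weeks 8 and 24 in WT (Pcdhb14 was lost); the other counts did not move.

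With 1 library left out, the number called ran from 0 to 2 for NLGF against WT at week 3 (2 without NLGF week 3 male 1, 1 without WT week 3 female 5 or male 4), 0 to 0 at week 8 and 0 to 1 at week 24. It ran from 2 to 6 for WT week 8 against week 3 (6 without WT week 8 female 1, 5 without WT week 3 male 4 or WT week 24 female 5), 0 to 1 for WT week 24 against week 8 and 15 to 17 for WT week 24 against week 3. In NLGF it ran from 4 to 7 for week 8 against week 3 (7 without week 8 female 5), 3 to 6 for week 24 against week 8 (6 without week 8 female 1, 5 without week 3 male 1) and 14 to 17 for week 24 against week 3. It ran from 2 to 4 for the pooled effect (4 without NLGF week 3 male 1 or NLGF week 8 female 4) and from 0 to 0 for each difference of genotype effects. The log2 difference of Pcdhac2 between weeks 3 and 24 in WT, at 0.01, ran from -0.027 to 0.025 and changed sign in 8 of 30 such fits.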
